A study of Mus musculus with 11 samples.

Results

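Keratin-associated proteins were examined through their genes in mouse skin. All genes whose symbol starts with *Krtap* and that had at least 1 read count in at least 1 skin library were taken, which gave 38 of the 54 *Krtap* genes among the 45777 genes measured. RNA of skin and small intestine from BALB/c mice was sequenced after topical imiquimod (IMQ), a ligand of the receptor TLR7 that induces psoriasis-like inflammation of the skin. All mice were shaved and, at an age of 8 to 10 weeks, were given 62.5 mg of cream per day for between 5 and 8 days, according to the sample annotation, on the back and the right ear. Controls received Vaseline as vehicle, and the treated mice received Aldara cream with 5% IMQ. The annotation names female or male mice without a sex for each sample, and it gives neither the number of days for each mouse nor which tissues came from one mouse. The skin comparison had 3 controls (controls 1, 2 and 3) and 3 IMQ-treated samples (IMQ 4, 5 and 6), and the small intestine had 3 controls (7, 8 and 9) and 2 IMQ-treated samples (10 and 11). Nothing states that the samples of a group were separate mice, so p-values measure the spread between these samples.

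Keratin-associated proteins form the matrix between the keratin filaments of the hair shaft, to which they are cross-linked through disulfide bonds of their many cysteines. Their genes are small, lie in clusters, and are transcribed late in the differentiation of the hair cortex and cuticle, while the follicle is in anagen, the growth phase of the hair cycle. By composition they are grouped as high sulfur, ultrahigh sulfur and high glycine-tyrosine proteins. Here the class was assigned from the family number in the gene symbol.

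The libraries held between 44995414 and 52492181 counts in skin and between 48035631 and 58526384 in small intestine. Control 2 of the skin stood apart from the other controls. Over 6 enterocyte markers, its median level was 1.24% of that in control small intestine, whereas the other skin libraries had 0% to 0.0276%. Its summed level of 11 inner root sheath genes, which mark growing follicles, was 6.47% of the mean of controls 1 and 3, and IMQ-treated skin averaged 4.03%. Markers of the epidermis were present in every skin library. Results that rest on control 2 are given with and without it, and its part in them was not tested beyond that. In whole tissue, fewer cells of a type and less RNA per cell cannot be told apart.

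Promoter sequences of the members were searched for exact matches to short motifs. RefSeq promoters of GRCm38.p6, which run from 250 bases before to 50 bases after the start of each gene, were found for 33 of the 38 members. The following 90 bases directly upstream of the start site, written 5′ to 3′, are shown for *Krtap3-1*, *Krtap3-2* and *Krtap3-3*, neighbours that differed in the skin libraries, and for *Krtap8-1* and *Krtap11-1*, abundant members of the cluster on chromosome 16. Capitals mark TATAAA, the core of the TATA box at which transcription of many tissue-specific genes is set up.
Krtap3-1, chr11:99566631-99566720, minus strand: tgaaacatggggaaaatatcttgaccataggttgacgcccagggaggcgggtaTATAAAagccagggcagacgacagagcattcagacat
Krtap3-2, chr11:99556854-99556943, minus strand: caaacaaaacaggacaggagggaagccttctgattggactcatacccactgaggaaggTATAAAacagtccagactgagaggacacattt
Krtap3-3, chr11:99550864-99550953, minus strand: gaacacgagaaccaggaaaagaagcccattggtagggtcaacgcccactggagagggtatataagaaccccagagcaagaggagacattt
Krtap8-1, chr16:89487953-89488042, minus strand: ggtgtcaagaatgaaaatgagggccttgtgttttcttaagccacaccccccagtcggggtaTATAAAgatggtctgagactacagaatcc
Krtap11-1, chr16:89571184-89571273, minus strand: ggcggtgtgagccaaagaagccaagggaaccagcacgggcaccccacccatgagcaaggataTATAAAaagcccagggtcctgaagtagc

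TATAAA was present in 4 of these 5 windows. The window of *Krtap3-3* lacked these exact letters but held the similar stretch tatataa. Whether that stretch serves as a TATA box was not tested. In the whole set, 30 of 33 member promoters (90.9%) had TATAAA on the sense strand, compared with 8.88% of all 27025 promoters. The motif started 20 to 40 bases before the start site in 23 members (69.7%), compared with 2.22% of all promoters. CTTTGAA or CTTTGTT, letters bound by the TCF/LEF factors of Wnt signalling, was found on either strand in 9 of 33 (27.3%), against 10.6% of all promoters. TTTATNG or TTAATNG, letters of the kind bound by the hair shaft factor HOXC13, was found on either strand in 13 of 33 (39.4%), against 16.8%. These matches are descriptions of sequence, and no binding was measured.

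In skin, the members were low and uneven. The highest count of any member in any skin library was 336, 8 members reached 20 counts, 3 reached 100, and 13 had no more than 4 counts in any library. The least abundant members that entered the set had a highest count of 2. The other 16 *Krtap* genes had no count in any skin or small intestine library. All 38 members had counts in control 1 and 33 had counts in control 3, but only 5 had counts in control 2. Each IMQ-treated library also had counts for 5 members. Summed over members, the counts were 871 in control 1, 415 in control 2, 581 in control 3, 80 in IMQ 4, 89 in IMQ 5 and 46 in IMQ 6. IMQ-treated skin was thus below every control in the sum, whereas in the number of members detected control 2 matched the treated samples.

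**Figure D1:**
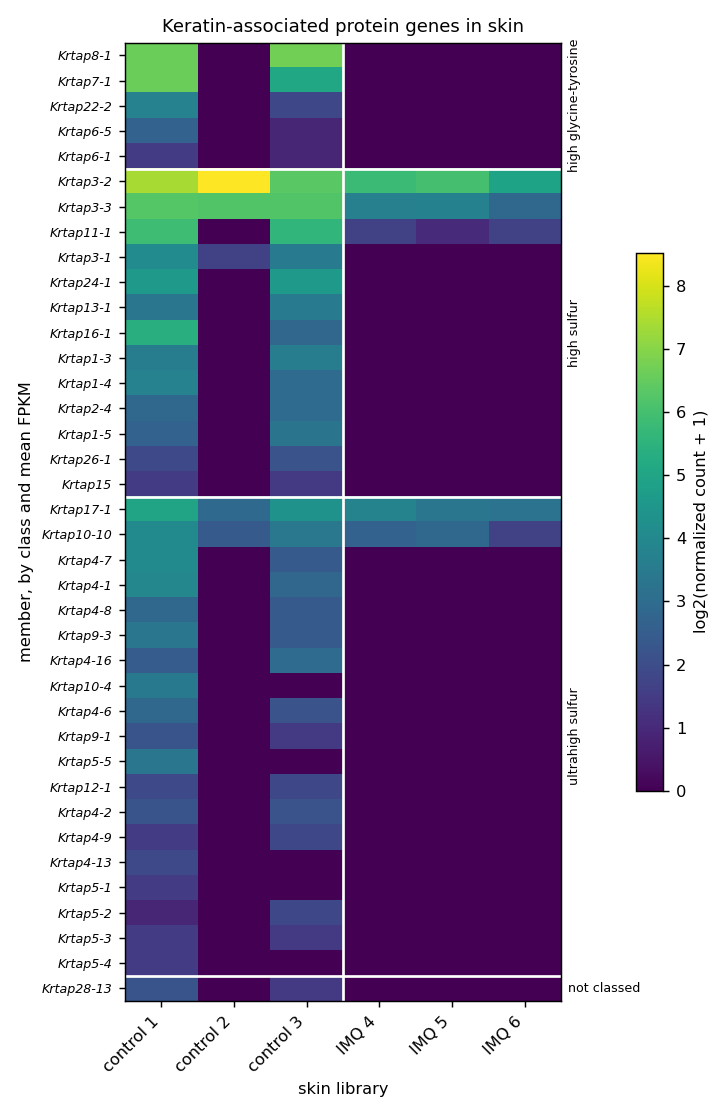
Normalized counts of the 38 members (vertical axis, grouped by class and ordered by mean FPKM) in the 6 skin libraries (horizontal axis), coloured as log2(normalized count + 1). Controls 1 and 3 are filled for most members, while control 2 and the 3 IMQ-treated libraries have counts for 5 members each.

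The pattern of detection was shared by most of the set. For 32 of 38 members, counts were found in control 1 or in controls 1 and 3 and in no other skin library, compared with 5.02% of the 29186 genes with a count in skin. Restricted to genes with at least 10 counts over the skin libraries, this held for 18 of 24 members and for 0.77% of 24141 genes. Those genes were not matched to the members in level, and the part of low counts in this contrast was not tested. These 32 members had no count in IMQ-treated skin, and they had none in control 2 either. A library with 0 counts allows up to 3 counts, which correspond to 3.09 to 3.28 normalized counts in the IMQ-treated libraries and 3.27 in control 2, for counting error only. For normalized counts, each count was scaled by the effective size of its library to the mean library of the tissue.

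Only 4 members had a count in every skin library and could be tested in the comparison of all 6, which required this. They were *Krtap3-2* and *Krtap3-3*, high sulfur members, and *Krtap17-1* and *Krtap10-10*, ultrahigh sulfur members. In edgeR's quasi-likelihood test, with a Benjamini-Hochberg adjusted p under 0.05, 1 of the 4 was called lower in IMQ-treated skin, and 2.69% of the 20512 genes tested were called lower. None was called higher, by edgeR or by DESeq2, and none was higher at an unadjusted p under 0.05. The background of genes called higher was 4.05%. The median log2 fold change over the 4 was -1.58, beside -0.01 over all genes tested. Since a member could enter only with counts in IMQ-treated skin, the 4 do not stand for the other 34.

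*Krtap3-3* encodes a high sulfur protein and lies on the minus strand of chromosome 11 at 99550132 to 99550863 (GRCm38), as 1 exon. Its normalized counts were 76.0, 73.1 and 73.2 in controls 1, 2 and 3, and 12.02, 12.3 and 6.36 in IMQ 4, 5 and 6. The controls lay close together, control 2 included, and every IMQ-treated sample was below all of them. The means were 74.1 ± 1.65 (SD, n = 3) and 10.2 ± 3.36 (SD, n = 3), with a log2 fold change of -2.84 (SE 0.31, adjusted p = 0.00533). The gene was called with each of the 6 libraries left out, at log2 fold changes of -2.99 to -2.59 and adjusted p of 0.00768 to 0.0321, and in the 10 other models, filters and scales tried.

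*Krtap3-2*, its neighbour at 99555823 to 99556853 on the same strand, was the member with the highest level in skin, at a mean FPKM of 2.24. Normalized counts were 169, 366 and 79.3 in controls 1, 2 and 3, and 54.6, 62.7 and 29.7 in the IMQ-treated samples. Control 2 was the highest of the 6 libraries, and the groups did not overlap, although control 3 was near the upper treated values. With means of 205 ± 147 (SD, n = 3) and 49.0 ± 17.2 (SD, n = 3), the log2 fold change was -2.06 (SE 0.59, adjusted p = 0.0918), which did not pass the threshold. Without control 2 the log2 fold change was -1.34, and over the libraries left out in turn the adjusted p was 0.0416 to 0.221. DESeq2 called the gene, with 7.39% of all genes called lower by that test. Non-overlapping groups with IMQ below were found for 2 of the 4 members tested, *Krtap3-2* and *Krtap3-3*, and for 13.3% of all genes tested.

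The transcripts of *Krtap3-2* and *Krtap3-3* share a stretch of 373 bases with at least 95% identity, so the division of reads between them is uncertain. Added together, they had 245, 439 and 153 normalized counts in the controls and 66.7, 75.1 and 36.1 in the IMQ-treated samples. The sum was 4.71-fold lower with IMQ, from 279 ± 146 to 59.3 ± 20.5 (SD, n = 3 each), and the groups did not overlap. The ratio of *Krtap3-2* to *Krtap3-3* was 2.23, 5.01 and 1.08 in controls 1, 2 and 3, and 4.55 to 5.08 with IMQ. In this ratio control 2 lay with the treated samples and away from controls 1 and 3. *Krtap3-1*, the third gene of the family, at 99566027 to 99566630, had 16.3, 2.18 and 10.5 normalized counts in the controls and 0 in each IMQ-treated sample. Its control mean of 9.64 ± 7.09 (SD, n = 3) was at least 3.03-fold above the level that 3 counts per IMQ-treated library allow.

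*Krtap17-1*, on chromosome 11 at 99993232 to 99993994, had 30.8, 6.54 and 19.2 normalized counts in the controls and 13.1, 9.26 and 8.48 with IMQ. Control 2 lay below all treated samples, so the groups overlapped, and the log2 fold change was -0.89 (SE 0.54, adjusted p = 0.378). *Krtap10-10*, on chromosome 10 at 77835947 to 77837251, had 15.4, 4.36 and 9.59 in the controls and 5.46, 6.17 and 2.12 with IMQ, with a log2 fold change of -1.09 (SE 0.55, adjusted p = 0.290). Its groups overlapped through control 2 as well. The gene lies within *Tspear*, a gene of the same strand with 38.2 to 289 normalized counts in the 6 libraries, so reads may be shared. Neither member was called in any alternative.

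**Figure D2:**
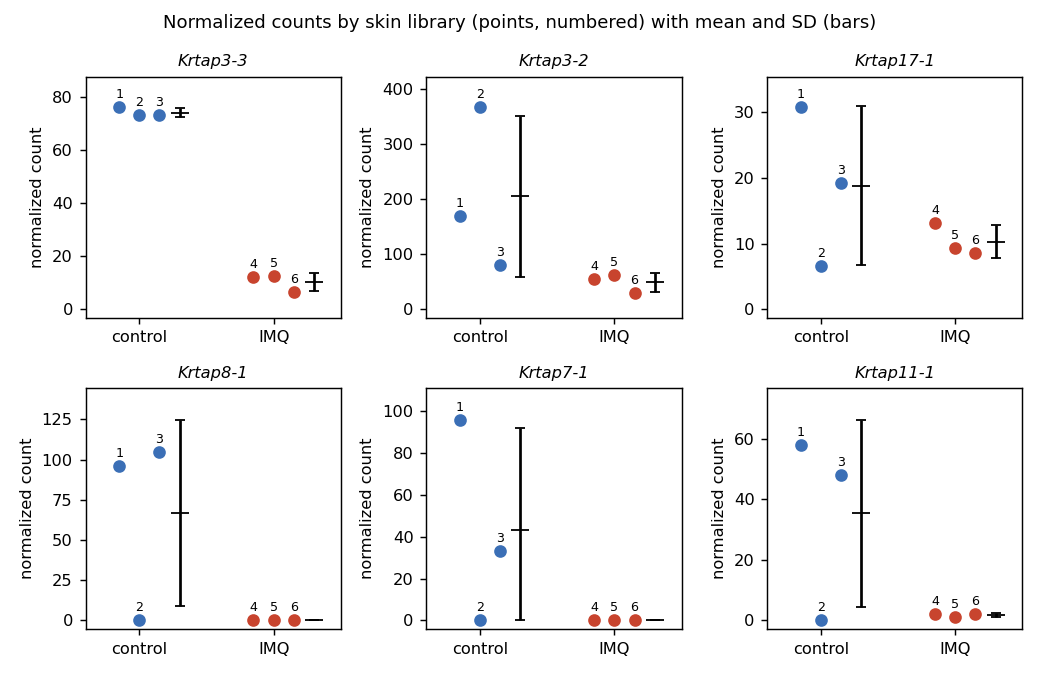
Normalized counts (vertical axes, linear, one scale per gene) of 6 members in controls 1 to 3 and IMQ 4 to 6, with points numbered by library and bars for the mean and SD (n = 3, lower end drawn no further than 0). Controls are together only for *Krtap3-3*; *Krtap3-2* is highest in control 2, and *Krtap8-1*, *Krtap7-1* and *Krtap11-1* are at 0 there.

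**Figure D3:**
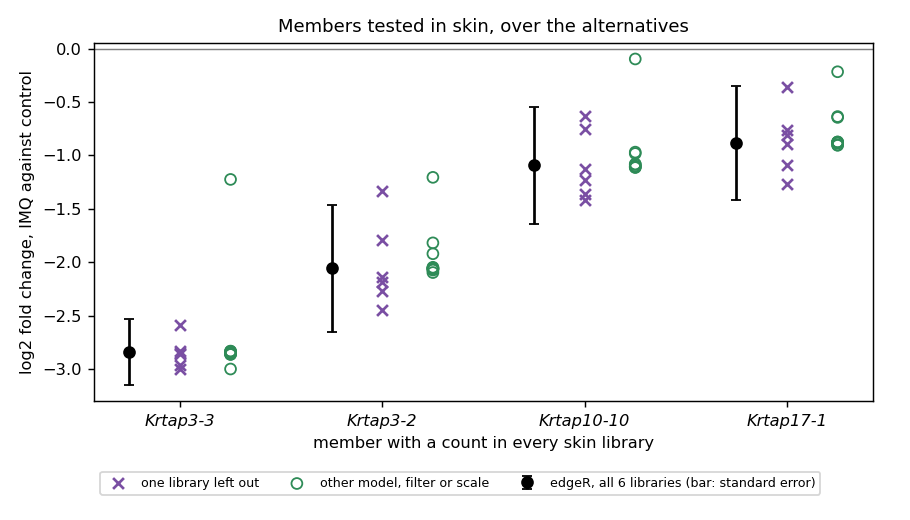
Log2 fold changes of IMQ against control (vertical axis) for the 4 members with a count in every skin library, with all 6 libraries (bar, standard error), with one library left out (crosses) and under other models, filters and scales (circles). All values are below 0, and those of *Krtap3-3* lie between -3.0 and -1.22, of which the value nearest 0 is on the log2(FPKM + 1) scale.

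The high glycine-tyrosine proteins, small proteins of the hair cortex with little cysteine, were represented by 5 of 14 genes, all on chromosome 16. They had 234 counts in control 1, 163 in control 3 and 0 in control 2 and in every IMQ-treated sample. *Krtap8-1*, at 89487374 to 89487952, had 95.9 normalized counts in control 1 and 105 in control 3, and it was the second most abundant member per length, at a mean FPKM of 1.11. *Krtap7-1*, at 89507703 to 89508323, had 95.9 in control 1 and 33.1 in control 3. *Krtap22-2* had 12.7 and 2.62, and *Krtap6-5*, which shares 267 near-identical bases with *Krtap6-1*, had 5.43 and 0.872. The controls of this class therefore spanned from 0 to the highest values, and the mean and SD were 66.8 ± 58.0 for *Krtap8-1* and 43.0 ± 48.7 for *Krtap7-1* (n = 3). Against the limit set by 3 counts per IMQ-treated library, these means were at least 21.01-fold and at least 13.5-fold higher. Control 2 was at 0 as well, so the groups overlapped.

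High sulfur genes, which encode cuticle and cortex proteins rich in cysteine, contributed 13 members of 17 genes, and 9 of the 13 were at 0 in control 2 and all IMQ-treated samples. *Krtap11-1*, on chromosome 16 at 89570176 to 89571183, had 57.9, 0 and 47.9 normalized counts in the controls and 2.19, 1.03 and 2.12 with IMQ. It was the only member with counts in every IMQ-treated sample and none in control 2. The treated samples had 2, 1 and 2 read counts, within the 3 counts that a library at 0 allows. They cannot be told apart from control 2 and were far below the other controls. *Krtap24-1* and *Krtap16-1* were picked after their values were seen. *Krtap24-1* had 22.6 and 22.7 normalized counts in controls 1 and 3, and *Krtap16-1* had 39.8 and 6.10, with 0 elsewhere for both.

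Ultrahigh sulfur genes, whose proteins are the richest in cysteine, contributed 19 members of 20 genes, the most complete class, but mostly at a few counts. Besides *Krtap17-1* and *Krtap10-10*, the other 17 were at 0 in control 2 and with IMQ. *Krtap4-7* had 15.4 and 4.36 normalized counts in controls 1 and 3, and *Krtap4-1*, which shares 536 near-identical bases with *Krtap4-2*, had 14.5 and 6.10. The median of the mean FPKM was 0.0240 in this class, 0.0774 in the high sulfur class and 0.120 in the high glycine-tyrosine class. With all 6 libraries and a count required in each, 2 high sulfur members, 2 ultrahigh sulfur members and 0 high glycine-tyrosine members were tested, and the 1 called, *Krtap3-3*, was of the high sulfur class, where 2.69% of all genes were called lower. *Krtap28-13*, on chromosome 1, was not classed, and it had 3.62 and 1.74 normalized counts in controls 1 and 3.

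By position, 19 members lay on chromosome 11 between 99550132 and 99993994, and 10 on chromosome 16 between 88610709 and 89571183. A further 5 lay on chromosome 7, all of the *Krtap5* family, 3 on chromosome 10 and 1 on chromosome 1. The 5 on chromosome 7 had 17 counts in control 1, 5 in control 3 and 0 elsewhere. The chromosome 11 cluster held 55.2% of all member counts in control 1 and 51.3% in control 3, but 99.0% in control 2 and 91.2% to 92.1% with IMQ. Chromosome 16 held 38.8% and 45.1% in controls 1 and 3, 0% in control 2 and 1.12% to 4.35% with IMQ. In both shares control 2 lay outside the range of the treated samples, on the side away from controls 1 and 3. For chromosome 16 the treated shares rest on only 2, 1 and 2 counts.

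When the requirement for counts in every library was dropped, all 38 members could be tested. Since 33 of them, *Krtap3-1* included, entered the set through counts in controls alone, the sign of their difference was fixed by that choice. Only *Krtap3-3* was called, with 1.35% of 29186 genes called lower. DESeq2 without the filter called 5 members, *Krtap3-1*, *Krtap3-2*, *Krtap3-3*, *Krtap11-1* and *Krtap24-1*, where 5.09% of genes were called lower, and it gave no adjusted p for 22 members. Without control 2 and with the filter kept, edgeR called *Krtap3-3* and *Krtap11-1* of 5 members tested, where 6.66% of genes were called lower. Without the filter and without control 2, edgeR called 5 members lower, where 4.55% of genes were. These were *Krtap3-3*, *Krtap11-1* (adjusted p = 0.00423), *Krtap8-1* (0.00639), *Krtap24-1* (0.0246) and *Krtap7-1* (0.0286). This setting was chosen after the data were seen. It leaves out the control in which all of these except *Krtap3-3* had no count, so their adjusted p-values are no support for a difference. The number of members called thus changed with control 2 and also with the model. It changed as well when control 3 was left out, which added *Krtap3-2* in edgeR. *Krtap3-3* was called in each case.

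Summed over members, FPKM, the level per length, was 18.2, 8.33 and 12.1 in controls 1, 2 and 3, and 1.57, 1.72 and 0.904 with IMQ. The sum was 9.22-fold lower with IMQ, and no test was made of it. Of the control 2 value, nearly all came from *Krtap3-2* and *Krtap3-3*. The other 36 members summed to 543, 13.1 and 354 normalized counts in the controls and 20.8, 16.5 and 12.7 with IMQ, so that control 2 was at 2.92% and IMQ-treated skin at 3.71% of the mean of controls 1 and 3.

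Other genes of the hair follicle were set beside the members, from lists written by function. Among hair keratins, the filament proteins to which keratin-associated proteins bind, 4 of 15 measured genes were tested. *Krt32* was called lower (164, 112 and 157 normalized counts in controls, 6.56, 18.5 and 11.7 with IMQ, log2 fold change -3.54, SE 0.40, adjusted p = 0.00624), and like *Krtap3-3* it was high in control 2. *Krt84* was called higher (log2 fold change 3.15, adjusted p = 0.0366), with a log2 fold change of 3.04 and an adjusted p of 0.0649 without control 2. Without that library, 3 of the 4 were called lower, *Krt32*, *Krt36* (adjusted p = 0.0355) and *Krt86* (adjusted p = 0.00139), and 0 higher. *Krt35*, in contrast, had 3227, 33.8 and 4519 in the controls and 0, 2.06 and 0 with IMQ, with control 2 nearer to treatment. Krt85 was not analysed here.

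Over all genes tested, 2.69% were called lower, and 6.66% without control 2. Of the inner root sheath genes, 2 of 7 tested were called lower, and 7 of 7 without control 2. Control 2 had been set apart partly by its low level of this same list. Counts without it, for this and the other follicle lists, are therefore descriptions and no separate support. Among non-keratin genes of the hair shaft 0 of 3 were called, and 2 without control 2. Follicle transcription factors had 2 of 6 lower (4 without control 2), signals of the anagen matrix such as *Wnt10b* had 4 of 6 (6), and melanocyte pigment genes had 0 of 7 (7). Genes of the bulge, the stem cell compartment that persists in the resting follicle, had 3 of 6 lower with or without control 2. *Krt15*, a bulge keratin, had 25868, 44237 and 28298 normalized counts in the controls and 6585, 6632 and 7389 with IMQ (log2 fold change -2.26, SE 0.23, adjusted p = 0.00448). Of the same list, *Cd34* (log2 fold change -0.41, adjusted p = 0.413) and *Nfatc1* (0.08, adjusted p = 0.855) were not called. Among epidermal genes, *Krt14* was called higher (log2 fold change 1.41, adjusted p = 0.0447), with a log2 fold change of 1.54 and an adjusted p of 0.0513 without control 2, and *Krt2* was called lower.

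**Figure D4:**
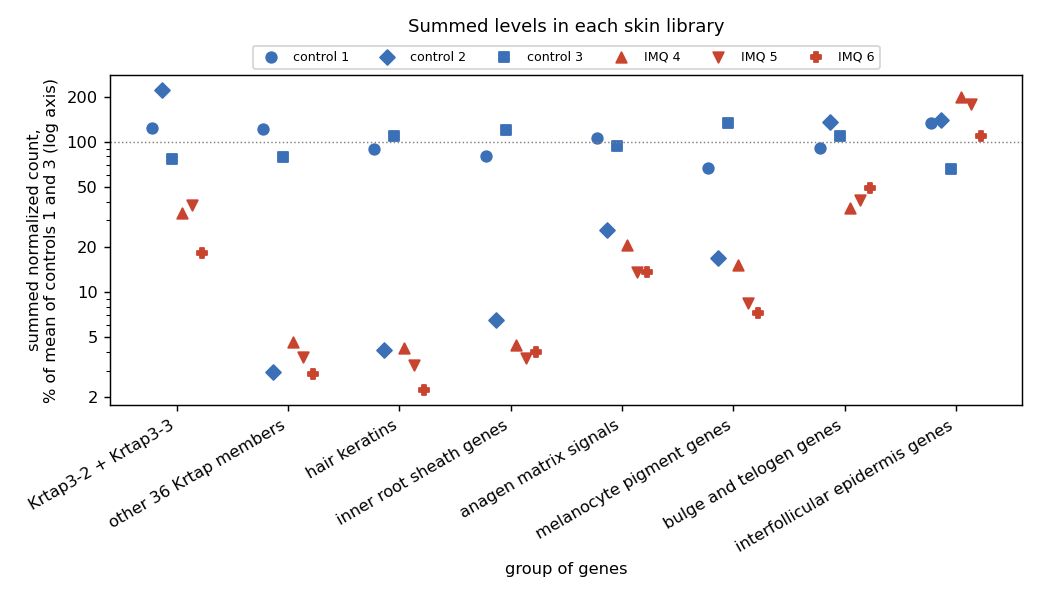
Summed normalized counts of gene groups (horizontal axis) in each skin library, as a percentage of the mean of controls 1 and 3 (vertical axis, log scale), with blue for controls and red for IMQ. Control 2 lies at 221% for *Krtap3-2* plus *Krtap3-3* and at 135% for bulge genes, but at 2.92% for the other 36 members, 4.12% for hair keratins and 6.47% for inner root sheath genes.

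Controls 1 and 3 were also compared for the members themselves. Over the 33 members with counts in both, the ratio of control 1 to control 3 had a median of 1.45. Of all 38 members, 28 had a higher normalized count in control 1, including 5 with no count in control 3. Some of the 28 had equal read counts in both and differed only by the scaling, such as *Krtap3-3* with 84 in each. Many of the others had only a few counts. The high glycine-tyrosine members had a median ratio of 2.90 (5 members, 0.917 to 6.23), the ultrahigh sulfur members 1.53 (14 members) and the high sulfur members 1.04 (13 members, up to 6.52 for *Krtap16-1*). Inner root sheath genes had a median ratio of 0.743, with 3 of 11 higher in control 1, and pigment genes had 0.414, with 0 of 7 higher. Hair keratins had a median ratio of 1.13, with 9 of 14 higher in control 1. Their summed level went the other way, at 90.2% of the mean of the 2 controls in control 1 and 110% in control 3. There was 1 sample on each side, and no test was made.

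**Figure D5:**
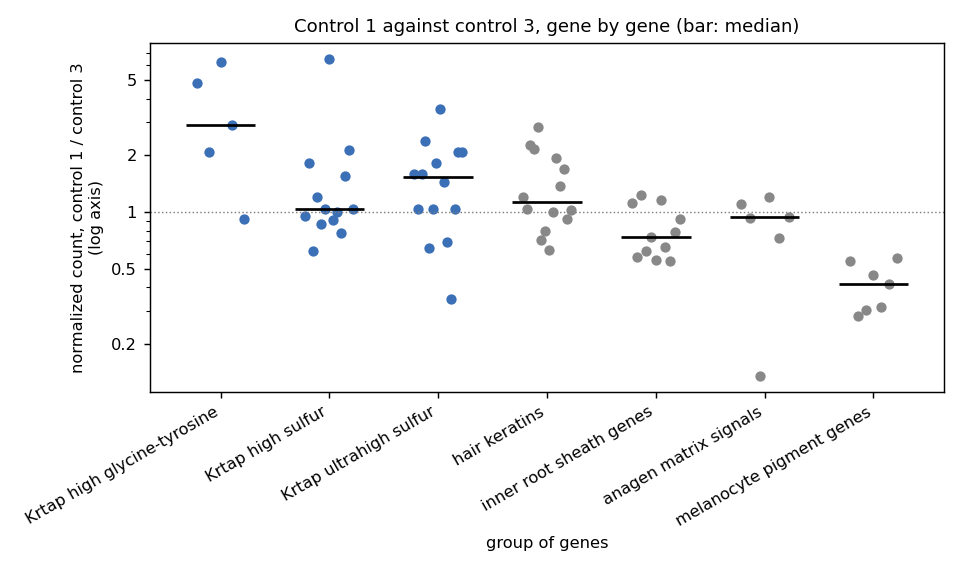
Ratio of normalized counts in control 1 to control 3 (vertical axis, log scale) for each gene with counts in both, by group of genes, with bars for medians. High glycine-tyrosine and ultrahigh sulfur members lie mostly above 1, and all 7 pigment genes lie below 1.

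In the small intestine, where no hair is made, 34 members had no count in any of the 5 libraries. *Krtap2-4*, *Krtap3-1* and *Krtap28-13* had at most 3.63 normalized counts in a library. Only *Krtap4-16*, an ultrahigh sulfur gene on chromosome 11 at 99850655 to 99851605, had counts in every library. Its normalized counts were 2.17, 4.03 and 14.8 in controls 7, 8 and 9, and 29.0 and 18.9 in IMQ 10 and 11. Both treated samples were above the 3 controls, as for 15.1% of the 19965 genes tested. With means of 6.99 ± 6.81 (SD, n = 3) and 23.9 ± 7.21 (SD, n = 2), the log2 fold change was 1.73 (SE 0.65, adjusted p = 0.323), and the gene was not called. No member was called in the small intestine by edgeR or DESeq2 (adjusted p = 0.403 for *Krtap4-16*), where 2.95% of genes were, and 1 member had an unadjusted p under 0.05 in edgeR's test. In skin, the same gene had 4.52 and 6.97 normalized counts in controls 1 and 3 and 0 elsewhere.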

How the data were processed

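RNA of 6 skin and 5 small intestine samples had been sequenced by the authors as 100-bp paired-end reads from a stranded mRNA kit. The submitters' processing notes name bcl2fastq 2.20.0, Trimmomatic, HISAT2 2.1.0 and StringTie 2.1.3b with mm10. The authors deposited whole-number read counts without normalization, with the FPKM and TPM they computed for each gene. The counting tool, its strand setting and the treatment of reads matching several genes are not given in the sources used here, so near-identical members (8 of 38) and the 4 members that overlap another gene are uncertain.

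Samples were grouped by the annotation. Genes with at least 1 count in every library of the tissue were normalized by relative log expression and tested with edgeR 4.0.16 (quasi-likelihood test, Benjamini-Hochberg adjusted p under 0.05) in R 4.3.3, on all genes. The methods of the study use DESeq2, run here (1.42.0) as an alternative, with limma 3.58.1, other normalizations, filters and scales, and each library left out. The SE is the log2 fold change divided by the root of F. Near-identity (95% over at least 100 bases) came from blastn 2.17.0. The edgeR fit was tried on simulated counts, made only from genes with a count in every skin library and with the same spread for all genes. That simulation does not cover members with zeros, the fits without the filter or a control that differs from the others.

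The members, lists and rules were chosen with earlier results of these data known. Named members are the 4 with the highest mean FPKM in each class, those tested, called or outside the clusters on chromosomes 11 and 16, and other genes come from the lists with up to 3 examples each. Class by protein composition could not be computed, because no protein sequences were used here, and the family number was used instead. TPM served only for the summed level.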

Additional observations from a re-analysis of the deposited data

How the results depend on the processing

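*Krtap3-3* was called lower under every alternative run, and no member was called higher in skin or called in the small intestine. The number of members called lower was 1, and became 2 with DESeq2 and 1 to 2 with a library left out. Dropping the filter and leaving out a library, or using DESeq2 without the filter, both chosen after seeing the data, gave 1 to 5 and 5. The median log2 fold change of -1.58 was -0.71 on log2(FPKM + 1), -4.51 without the filter and -4.01 without it in DESeq2, both over all 38 members, most of them at 0 in IMQ-treated skin. With members at 0 in IMQ-treated skin taken at their bound instead, the median was -1.05 over the 23 members with a bound or a fit. The 9.22-fold sum became 16.8-fold without *Krtap3-2*. Over all genes, 1382 calls became 3030 with DESeq2, 894 on log2(FPKM + 1), 2987 with DESeq2 without the filter and 258 to 2521 with a library left out, highest without control 2. For the hair and epidermal lists, 15 calls became 37, 6, 44 and 3 to 33 in the same order, 9 with limma-voom and 26 with one fit of all 11 libraries. Without the filter, control 1, 2 or 3 or IMQ 4, 5 or 6 was left out, in this order. The calls over all genes were then 305, 2341, 813, 362, 228 and 528, and those of the lists 3, 49, 7, 4, 2 and 5. The median of the members was -3.93, -5.07, -4.38, -4.54, -4.51 and -4.53. It covered 33 members without control 1 and 38 in the other fits. The cause of these differences between models was not tested. Where depth allows only a few counts per library, as for the 13 members with at most 4, a difference was not detectable. The class by protein composition was not run. No paired analysis was possible because the replicate numbers, 1 to 11, are not shared between groups.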
